A study of Homo sapiens with 4 samples.

Results

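A set of 10 genes, ligands and enzymes by which a tumour cell can restrain immune cells, were read in TE5 cells that overexpress ETS1 and in their controls. TE5 is an established human oesophageal squamous cell carcinoma line, and ETS1 is a transcription factor that binds DNA at a GGAA core. The members were chosen by name, CD274, PDCD1LG2, CD276, VTCN1, CD47, LGALS1, LGALS3, LGALS8, LGALS9 and NT5E, and all 10 were found among the 55764 gene names listed. There were 2 ETS1 libraries, from TE5 cells infected with lentivirus that carries ETS1 behind a CMV promoter, and 2 control libraries, from TE5 cells with the backbone vector, whose genotype label is WT. Both groups were selected for stable carriage and grown in the same medium, per the labels. Whether each group is a pool or a clone, and whether libraries 1 and 2 are separate cultures, is not given in the sources used here, so the p-values measure only the spread between these libraries, which may be technical. In bulk RNA, a higher level in each cell and more cells with a high level cannot be told apart.

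Checkpoint ligands of the B7 family sit on the tumour or antigen-presenting cell and bind receptors on T cells. PD-L1 (CD274) and PD-L2 (PDCD1LG2) bind PD-1, and B7-H3 (CD276) and B7-H4 (VTCN1) are relatives that are known mainly as inhibitory. CD47 signals to phagocytes through SIRP-alpha. Galectins are lectins that bind beta-galactosides on surface glycans, where galectin-1 (LGALS1), galectin-3 (LGALS3) and galectin-9 (LGALS9) are known to restrain or kill T cells and galectin-8 (LGALS8) also senses damaged endosomes. CD73 (NT5E) makes extracellular adenosine from AMP.

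The deposited values are FPKM, read fragments divided by gene length and by library size. The implied lengths mostly follow the union of annotated exons, such as 9696 bases for LGALS8 and 1093 for LGALS1. Levels compared between genes therefore rest on annotated lengths and not on the lengths of the transcripts present. Because FPKM steps in whole reads, the reads behind the values could be recovered. The recovered totals of reads assigned to genes were 40505238 and 44281806 in the controls and 57505841 and 56737036 in the ETS1 group, which was deeper by 1.35 times in the mean. These totals are inferred from the FPKM and are not the numbers of reads sequenced. ETS1 itself stood at 0.491 and 0.509 FPKM in the controls and at 1.84 and 1.87 FPKM in the ETS1 libraries, in the direction of the labels. Vector and endogenous transcripts were not told apart. Of 11 squamous and epithelial markers, KRT5, KRT14, KRT6A and TP63 had 0 reads in both controls and at most 6 in an ETS1 library. KRT19 had at most 3 reads in a library. KRT18 read 10.2 and 10.5 FPKM in the controls and 8.35 and 8.29 FPKM in the ETS1 libraries. KRT8 went the other way, from 3.91 and 3.87 to 6.48 and 6.59 FPKM. EPCAM read 1.37 and 1.36 FPKM in the controls and 0.915 and 1.12 FPKM in the ETS1 libraries. SOX2, a transcription factor of squamous lineages, was present at 2.72 and 3.13 FPKM in the controls and 3.52 and 3.82 FPKM in the ETS1 libraries. KRT13 had 8 to 12 reads in a library. The adhesion gene CDH1 read 0.571 and 0.567 FPKM in the controls and 1.08 and 0.916 FPKM in the ETS1 libraries. In a voom fit on recovered reads that includes low genes, CDH1 was called higher (voom adjusted p = 0.000215) and KRT13 was not called. In that fit 52.6% of all genes were called. Of 10 leukocyte markers, 6 were under 0.1 FPKM in all libraries and PTPRC, the pan-leukocyte marker, had at most 2 reads. Of 3 low markers in the same voom fit, ITGAM was called higher (voom adjusted p = 0.00194), and CD14 and CSF1R were not called. ITGAM read 0.250 and 0.252 FPKM in the controls and 0.522 and 0.419 FPKM in the ETS1 libraries. NKG7, which reached the filter, read 1.24 and 1.60 FPKM in the controls and 1.16 and 1.76 in the ETS1 libraries, and the groups overlapped. The summed level of the 10 markers was 2.72 and 3.33 FPKM in the controls and 3.76 and 4.14 in the ETS1 libraries, and its part in the results was not tested.

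The members covered a wide range of levels. In the controls LGALS1 was highest with a mean of 21.3 FPKM, followed by CD276 (16.7), CD47 (7.37), LGALS3 (2.10) and LGALS8 (2.07), and the remaining 5 were under 0.3 FPKM. LGALS3 and LGALS8 overlapped in the controls, and each other member of that order was clear of the next. In the ETS1 libraries LGALS1 stood at 45.5 FPKM, CD276 at 16.6, CD47 at 9.24, LGALS3 at 3.28 and LGALS8 at 1.30, with no overlap between neighbours. NT5E (0.299 FPKM) stood above LGALS9 (0.230 FPKM) in the ETS1 libraries, where the controls had LGALS9 (0.291 FPKM) above NT5E (0.210 FPKM).

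**Figure D1:**
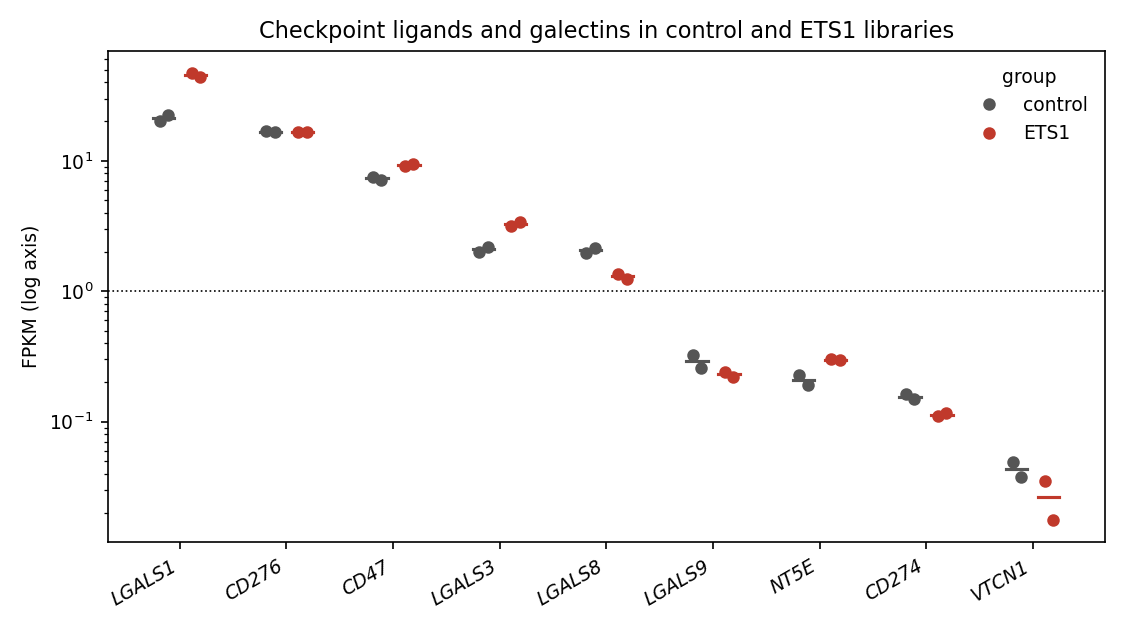
FPKM on a log axis of 9 members in each library, with controls in grey and ETS1 libraries in red, and short lines at the group means. PDCD1LG2 is left out because 3 of its 4 values are 0. The dotted line at 1 FPKM marks the filter, above which LGALS1, CD276, CD47, LGALS3 and LGALS8 lie, and the red LGALS1 points sit at 44.0 and 47.0 against 20.2 and 22.5 in grey.

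Genes with a mean of at least 1 FPKM over the 4 libraries were tested with limma on log2(FPKM + 1), a scale that understates the change of low genes. Of the members, 5 of 10 passed this filter. Among these, LGALS1, LGALS3 and CD47 were called higher and LGALS8 lower at an adjusted p under 0.05, and CD276 was not called. The change was so widespread that 59.1% of the 14306 tested genes were called, 30.7% higher and 28.4% lower, and the count of 4 in 5 members is to be read against that share. Likewise, the ETS1 and control values did not overlap for 4 of the 5 members and for 82.0% of all tested genes. The 5 had a median log2 change of 0.29 against 0.016 over all tested genes. The authors' deposited table holds the same 5 members, where 3 have a positive and called change and 1 a negative one (adjusted p under 0.05), and 51.2% of its genes with an adjusted p were called.

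**Figure D2:**
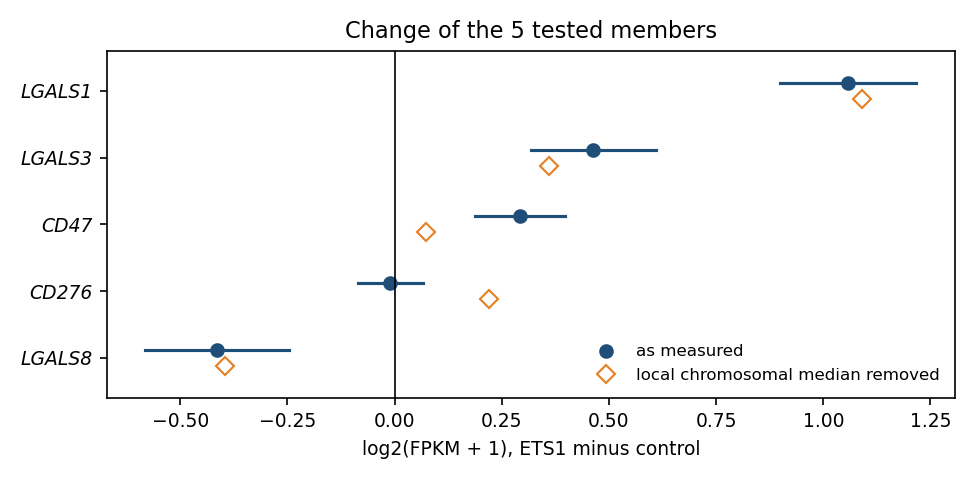
Change in log2(FPKM + 1), ETS1 minus control, of the 5 tested members (filled circles, with 95% confidence intervals from limma) and the same change after the median of tested genes within 10 Mb was removed (open diamonds). The intervals of LGALS1, LGALS3 and CD47 lie above 0 and that of LGALS8 below 0, while CD276 and CD47 move most when the local median is removed.

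CD276 was the only B7 ligand of the members with a substantial transcript level. It lies on chromosome 15 (73683966 to 73714518, plus strand, protein-coding, GENCODE 29 on GRCh38) and read 16.9 and 16.6 FPKM in the controls and 16.6 and 16.6 FPKM in the ETS1 libraries. The groups overlapped. The log2 change was -0.010 (SE 0.029, limma adjusted p = 0.782), and the 95% interval ran from -0.085 to 0.065. In the authors' deposited table its log2 fold change is -0.033 with an adjusted p of 0.612.

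The genes around CD276 were mostly lower. Within 10 Mb, 107 of 133 tested genes were lower in the ETS1 libraries and their median was -0.23, and 104 of them had a lower value than CD276. When the local median was removed, CD276 was called higher, with a log2 change of 0.22 (limma adjusted p = 0.00214). The direction for CD276 therefore depended on whether it was set against all genes or against its neighbours, and the cause was not tested. The lower values were not particular to the region, since the median over all 390 tested genes of chromosome 15 was also -0.23.

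CD274 was scarce. It lies on chromosome 9 (5450503 to 5470566, plus strand) and read 0.163 and 0.149 FPKM in the controls and 0.110 and 0.116 FPKM in the ETS1 libraries. These values rest on 27 and 27 control reads against 26 and 27 ETS1-library reads. The read numbers were nearly the same in libraries of different depth, so the ETS1 values are lower relative to depth. The ratio of the pooled rates was 0.728 with an exact 95% interval of 0.489 to 1.08, which covers counting error only. The filter left CD274 untested. In a voom fit on the recovered reads of the 20162 genes with a mean of at least 10 reads, chosen after seeing the data, its log2 change was -0.46 (SE 0.30, voom adjusted p = 0.227). In that fit 52.6% of genes were called. CD276 stood 104 and 112 times above CD274 in FPKM in the controls and 151 and 143 times above it in the ETS1 libraries.

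PDCD1LG2, which neighbours CD274 on chromosome 9 (5510570 to 5571254, plus strand), had 0, 0 and 0 reads in 3 libraries and 1 read in the ETS1 library numbered 2. At this depth 3 reads would have read as 0.0216 to 0.0307 FPKM, so PD-L2 transcript was not detectable above that level. VTCN1 (chromosome 1, 117143587 to 117210960, minus strand) had 6 and 5 control reads against 6 and 3 ETS1-library reads, or 0.0495, 0.0377, 0.0349 and 0.0177 FPKM. The ratio of its pooled rates was 0.607 with an exact 95% interval of 0.222 to 1.61 for counting error. At this depth no difference in VTCN1 was detectable.

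A list of 24 genes held other B7, butyrophilin and nectin genes and further genes such as CD58 and CD59, so it is broader than checkpoint ligands. Of the 24, 23 were found in the files and 13 passed the filter. Of the 13, 7 were called higher, 1 lower and 5 neither, with a median log2 change of 0.13. Over all tested genes 59.1% were called and 30.7% were called higher. The 7 include CD59. PVRL4 (nectin-4) rose the most, from 1.40 and 1.20 to 3.16 and 3.33 FPKM, a log2 change of 0.89 (SE 0.065, limma adjusted p = 0.00083). PVRL3 (nectin-3) rose by 0.52 and BTN2A2, a butyrophilin, by 0.26 on the log2 scale, with limma adjusted p-values of 0.00267 and 0.00335. PVR (CD155), a ligand of the T cell and natural killer cell receptor TIGIT, fell by 0.29, from 24.5 and 25.5 to 20.4 and 20.1 FPKM. PVRL2 (nectin-2), the other main TIGIT ligand, changed by 0.049 (limma adjusted p = 0.209). The co-stimulatory ligand CD80 had 2 and 2 control reads against 12 and 12 ETS1-library reads, and CD86 had at most 3 reads in a library. Of 3 genes of this list under the filter that entered the voom fit with low genes, 2 were called lower and CEACAM1 was not called, against 52.6% called over all genes of that fit. The co-stimulatory ligand ICOSLG fell by 0.67 on the log2 scale (voom adjusted p = 0.000872), from 0.612 and 0.688 to 0.373 and 0.446 FPKM. TNFRSF14 (HVEM), the ligand of BTLA, fell by 1.30 (voom adjusted p = 0.000383), from 0.413 and 0.364 to 0.126 and 0.196 FPKM.

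CD274 is known to be induced by interferon-gamma through JAK kinases and IRF1 and to be kept at the surface by CMTM6. A list of 20 such regulators had 18 tested members, with 7 called higher, 1 lower and 10 neither, and a median of 0.076. Over all tested genes 59.1% were called, 30.7% higher and 28.4% lower, and the median was 0.016, so the number of regulators called was not above that share. IRF1, an interferon-induced transcription factor, rose from 1.41 and 1.62 to 2.18 and 2.28 FPKM, a log2 change of 0.36 (limma adjusted p = 0.00837). The kinase JAK1 rose by 0.46 and STAT2 by 0.42 on the log2 scale. The receptor chain IFNGR1 changed by -0.013 (limma adjusted p 0.768) and CMTM6 by -0.080 (limma adjusted p 0.059). PTPN2, a phosphatase that acts on JAK and STAT proteins, was the gene called lower. Of 2 regulators under the filter, the voom fit with low genes called JAK2 higher, from 0.605 and 0.650 to 0.967 and 1.06 FPKM (voom adjusted p = 0.000353). The other, SOCS1, was not called (log2 change 0.50, voom adjusted p = 0.161), where 52.6% of all genes in that fit were called. CD274 itself was under the filter of the limma fit.

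The letters before the CD274 start are shown because ETS factors bind a GGAA core, searched here on both strands, where the opposite strand reads TTCC. The stretch runs from the beginning of the 250-base upstream window to the base before the first annotated exon, chr9:5450292-5450502, plus strand, RefSeq promoter table on GRCh38.p14, with each match in capitals, 5′ to 3′.
CD274: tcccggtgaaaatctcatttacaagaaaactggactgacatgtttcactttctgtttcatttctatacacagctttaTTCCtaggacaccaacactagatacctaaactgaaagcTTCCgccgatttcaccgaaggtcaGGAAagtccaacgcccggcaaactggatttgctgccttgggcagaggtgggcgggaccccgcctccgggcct
There are 3 matches, starting at bases 78, 116 and 140 of the stretch. A match is a description of letters and not a measured site.

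CD47 transcript was higher with ETS1. The gene lies on chromosome 3 (108043094 to 108091862, minus strand) and read 7.57 and 7.16 FPKM in the controls and 9.12 and 9.37 FPKM in the ETS1 libraries. Both ETS1 values lay above both controls. The FPKM ratio was 1.25 and the log2 change 0.29 (SE 0.040, limma adjusted p = 0.00367). In the authors' deposited table its log2 fold change is 0.30 with an adjusted p of 1.79e-06.

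Its chromosomal neighbourhood was also higher. Within 10 Mb, 30 of 38 tested genes were higher in the ETS1 libraries and the median was 0.22, with 16 neighbours above CD47 and 22 below it. With the local median removed, the CD47 change was 0.074 (limma adjusted p = 0.163), so the call depended on whether CD47 was compared with the whole genome or with its neighbours.

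**Figure D3:**
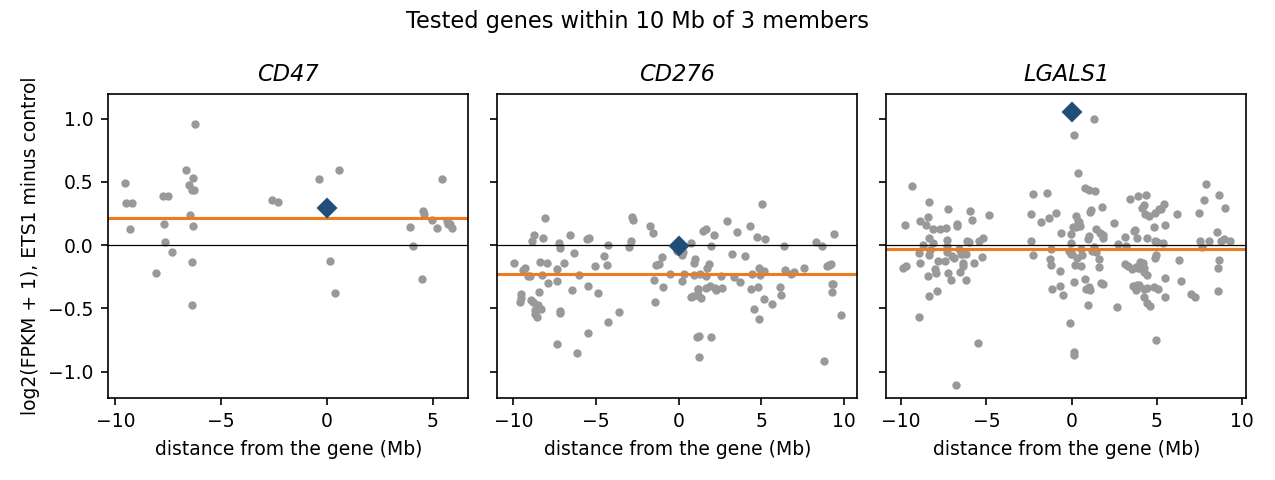
Log2 change of tested genes (grey) within 10 Mb of CD47, CD276 and LGALS1, against distance from the gene in Mb, with the member as a blue diamond and the median of its neighbours as an orange line. CD47 (0.29) lies near its neighbours' median of 0.22, CD276 (-0.010) lies above a median of -0.23, and LGALS1 (1.06) lies above all 190 of its neighbours.

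The window before the RefSeq start of CD47 is shown for the same GGAA core. It lies inside the gene as GENCODE 29 draws it, downstream of that annotation's 5′ end, and overlaps 0 of its annotated CD47 exons. It spans chr3:108091032-108091281, minus strand, RefSeq promoter table on GRCh38.p14, printed 5′ to 3′ with each GGAA on either strand in capitals.
CD47: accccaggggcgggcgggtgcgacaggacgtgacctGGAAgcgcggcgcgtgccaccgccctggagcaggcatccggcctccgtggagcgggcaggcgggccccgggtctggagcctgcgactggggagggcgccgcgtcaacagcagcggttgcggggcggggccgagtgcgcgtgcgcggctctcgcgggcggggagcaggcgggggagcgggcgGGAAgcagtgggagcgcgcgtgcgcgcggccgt
There are 2 matches, starting at bases 37 and 218. The core occurs in 92.7% of all 250-base windows and in 11 of the 11 windows found for 8 members, so its presence sets no member apart. The longer ETS form CCGGAAG occurs in 8.52% of all windows and in 0 of those 11. LGALS1 and PDCD1LG2 had no entry.

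Of 11 listed partners and modifiers of CD47, 6 passed the filter, and 5 of them were called higher and 1 lower, where 59.1% of all tested genes were called. The 5 include SIRPA, whose call was lost under most alternatives. The one that fell was QPCTL, the enzyme that forms the pyroglutamate at the CD47 N-terminus on which SIRP-alpha binding depends. QPCTL went from 10.5 and 9.57 to 6.20 and 6.54 FPKM, a log2 change of -0.58 (SE 0.054, limma adjusted p = 0.00134). Its relative QPCT, a secreted glutaminyl cyclase, was called higher. The integrin ITGAV rose by 0.59, and the phagocytosis-related genes LRP1 and CALR rose by 0.57 and 0.36. CD47 and the enzyme that modifies it thus moved in opposite directions. SIRPA, the receptor itself, read 4.66 and 4.27 FPKM in the controls and 5.21 and 5.01 in the ETS1 libraries. Its log2 change of 0.16 passed (limma adjusted p = 0.0449), but lost the threshold under 11 of 16 alternatives, and its adjusted p over the 16 ran from 0.0202 to 0.184.

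LGALS1 had the largest change of the members. It lies on chromosome 22 (37675608 to 37679806, plus strand) and read 20.2 and 22.5 FPKM in the controls and 47.0 and 44.0 FPKM in the ETS1 libraries, from 895 and 1088 against 2953 and 2727 reads. The groups were far apart, with an FPKM ratio of 2.13. The log2 change was 1.06 (SE 0.061, 95% interval 0.90 to 1.22, limma adjusted p = 0.000594). Of 190 tested genes within 10 Mb, 0 had a larger increase, and the local median was -0.032. The change stood at percentile 99.5 of all tested genes. Of 7 fibroblast and endothelial markers found in the files, COL1A1 alone passed the filter, with 2.17 and 2.06 FPKM in the controls and 2.81 and 2.88 FPKM in the ETS1 libraries (limma adjusted p = 0.00599). LUM, PDGFRB and VWF, at 1 to 29 reads in a library, were called higher in the voom fit with low genes (voom adjusted p = 0.00172, 0.0365 and 0.0223), and COL1A2, DCN and CDH5 had at most 4 reads. The summed level of the 7 was 2.12 to 2.25 FPKM in the controls and 3.07 to 3.13 FPKM in the ETS1 libraries, and its part in the LGALS1 change was not tested. The LGALS1 level went from percentile 82.5 of tested genes in the controls to 93.1 in the ETS1 libraries.

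LGALS3 was also higher and LGALS8 lower. LGALS3 (chromosome 14, 55124110 to 55145413, plus strand) read 2.01 and 2.20 FPKM in the controls and 3.19 and 3.37 FPKM in the ETS1 libraries. The FPKM ratio was 1.56 and the log2 change 0.46 (SE 0.056, limma adjusted p = 0.00258). LGALS8 (chromosome 1, 236518000 to 236552981, plus strand) read 1.97 and 2.16 FPKM in the controls and 1.36 and 1.24 FPKM in the ETS1 libraries. Its FPKM ratio was 0.63 and its log2 change -0.41 (SE 0.065, limma adjusted p = 0.00534). Neither pair of groups overlapped. Because both genes are low, the pseudocount of 1 FPKM pulls these changes in, and voom on recovered reads gave 0.64 for LGALS3 and -0.67 for LGALS8. In the authors' deposited table the log2 fold changes are 0.55 and -0.66.

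The LGALS8 exons share 2095 bases with those of HEATR1 on the opposite strand in GENCODE 29. The strand setting of the read count is not given in the sources used here, so reads from the shared part may be lost or misassigned. HEATR1 read 9.98 and 10.7 FPKM in the controls and 10.4 and 10.0 in the ETS1 libraries, a log2 change of -0.016 (limma adjusted p = 0.779). HEATR1 was not called, while LGALS8 was called lower. The antisense gene LGALS8-AS1 was listed at 0 in all 4 libraries.

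LGALS9 (chromosome 17, 27629798 to 27649560, plus strand) was under the filter, with 0.325 and 0.257 FPKM in the controls and 0.241 and 0.219 FPKM in the ETS1 libraries. It had 75 and 65 reads against 79 and 71. The ratio of the pooled rates was 0.795 with an exact 95% interval of 0.627 to 1.01 for counting error. In the voom fit that includes low genes its log2 change was -0.32 (SE 0.20, voom adjusted p = 0.203). LGALS9B and LGALS9C, near-identical copies, had at most 2 reads in each library, but reads that match more than 1 copy may be missing from all of them.

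Galectin-1 dominated the summed galectin FPKM. The sum over 15 galectin genes was 25.5 and 28.1 in the controls and 52.8 and 49.3 in the ETS1 libraries. It leaves out the galectin-related LGALSL, which read 8.43 and 7.87 FPKM in the controls and 8.81 and 8.63 FPKM in the ETS1 libraries. LGALS1 made up 79.4% and 80.1% of that sum in the controls and 89.0% and 89.2% in the ETS1 libraries. The LGALS8 share was 7.75% and 7.70% against 2.58% and 2.52%. LGALS3 and LGALS8 stood at nearly the same FPKM in the controls, with ratios of 1.02 and 1.02, from 194 and 232 against 775 and 928 reads. Their implied lengths were 2385 and 9696 bases. In FPKM, LGALS3 was 2.34 and 2.71 times LGALS8 in the ETS1 libraries. Of 12 other genes in the galectin list, the galectin-related LGALSL alone passed the filter, with a log2 change of 0.087 (limma adjusted p = 0.141), and 4 were listed at 0 in all libraries.

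**Figure D4:**
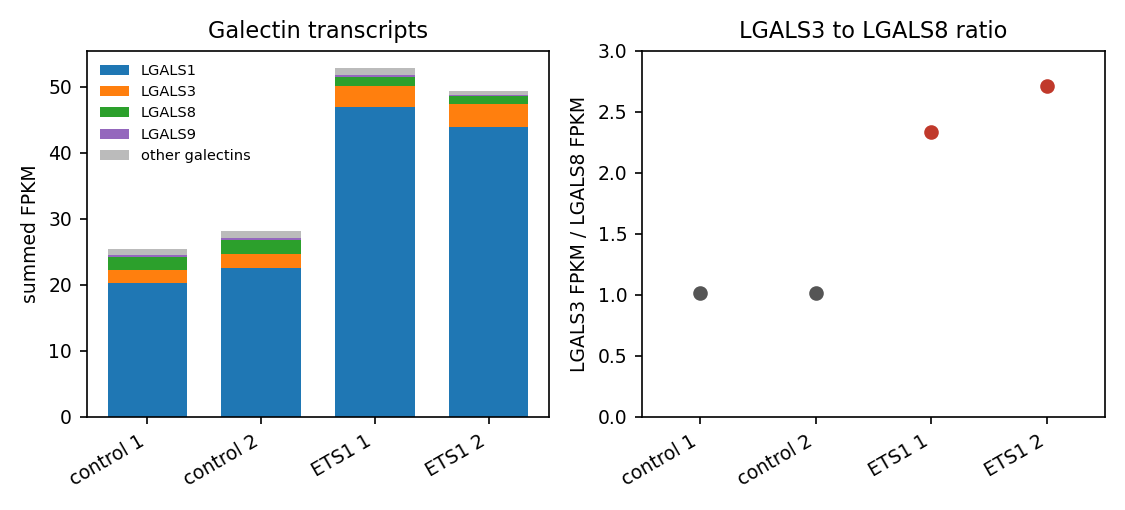
Left, summed FPKM of 15 galectin genes in each library, without LGALSL, stacked by gene, with LGALS1 at the bottom. Right, the LGALS3 to LGALS8 ratio of FPKM in each library, which was 1.02 in both controls and 2.34 and 2.71 in the ETS1 libraries.

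Glycoproteins that galectins bind, and enzymes that build or cap their glycans, formed a list of 22 genes with 20 tested. Of these, 8 were called higher, 3 lower and 9 neither, with a median of 0.10, and the share called was near the 59.1% of all tested genes. LGALS3BP, a secreted glycoprotein that binds galectin-3, rose from 8.17 and 8.73 to 14.4 and 14.5 FPKM, a log2 change of 0.71 (limma adjusted p = 0.000576). The integrin chain ITGB1 rose by 0.48, the lysosomal glycoprotein LAMP2 by 0.40 and the N-glycan branching enzyme MGAT4B by 0.35. MGAT5, whose branched N-glycans galectin-3 is known to crosslink, changed by 0.095 (limma adjusted p = 0.0634). The 3 genes called lower were the sialyltransferases ST3GAL1 and ST3GAL4 and the glycoprotein BSG (basigin). ST6GAL1, whose sialic acid cap blocks galectin-1 binding, changed by -0.065 (limma adjusted p = 0.477). CD44, the hyaluronan receptor and a galectin-binding glycoprotein, was under the filter with 13 and 16 control reads against 240 and 218 ETS1-library reads. Its FPKM ratio was 11.7, and the voom fit that includes low genes gave an adjusted p of 8.8e-07.

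NT5E (chromosome 6, 85449584 to 85495791, plus strand) was low but higher in both ETS1 libraries. It read 0.228 and 0.192 FPKM in the controls and 0.304 and 0.295 FPKM in the ETS1 libraries, from 37 and 34 against 70 and 67 reads. The ratio of the pooled rates was 1.43 with an exact 95% interval of 1.07 to 1.94, which covers counting error and not the spread between libraries. In the voom fit that includes low genes its log2 change was 0.51 (SE 0.24, voom adjusted p = 0.0891), which missed the threshold. The length implied by its FPKM was 4007 bases, 0.884 of the exon union in GENCODE 29, the largest departure among the 10 members.

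Among the 22 genes of the adenosine pathway around CD73, 12 were tested, with 1 called higher, 4 lower and 7 neither, and a median of -0.063. The share called lower was near the 28.4% over all tested genes. The share called higher was under the 30.7% over all tested genes, and the share called in either direction was under their 59.1%. The nucleoside transporters SLC29A1 and SLC29A2, which carry adenosine across the membrane, fell by 0.51 and 0.43 on the log2 scale. SLC29A1 read 20.9 and 20.1 FPKM in the controls and 13.8 and 14.4 in the ETS1 libraries, and SLC29A2 read 16.2 and 16.8 against 12.2 and 11.7. ADA, the adenosine deaminase, fell by 0.24 (limma adjusted p = 0.0118), which rose to 0.0538 with no filter and to 0.0631 without the ETS1 library numbered 2. ENTPD1 (CD39), which makes the AMP that CD73 uses, was also called lower. NT5C3A, a cytosolic nucleotidase, rose by 0.30. Of 7 genes of this list under the filter that entered the voom fit with low genes, 3 were called higher, 0 lower and 4 neither (BST1, ACPP, ADORA1 and ADORA2A), where 52.6% of all genes in that fit were called. The 3 were ENTPD2 (log2 change 1.02, voom adjusted p = 0.00867) and ENPP3 (1.41, voom adjusted p = 0.000599), which hydrolyse extracellular nucleotides, and the adenosine deaminase-binding protein DPP4 (0.92, voom adjusted p = 0.000883).

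**Figure D5:**
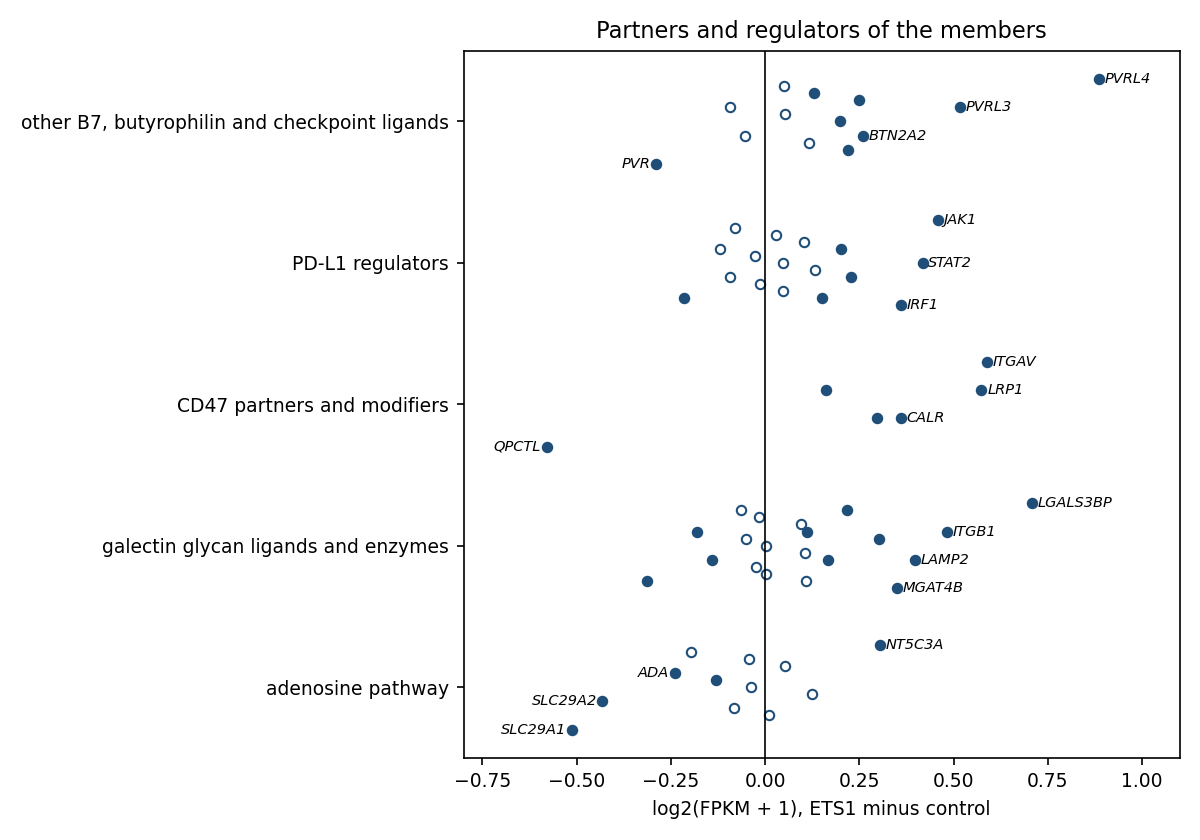
Log2 change of the tested genes of 5 lists (rows), with called genes filled and others open, and up to 4 called genes per list named; 1 tested regulator is not shown. PVRL4 (0.89) and LGALS3BP (0.71) lie farthest to the right, and QPCTL (-0.58) and SLC29A1 (-0.51) farthest to the left. Vertical position within a row carries no meaning.

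Immune cell receptors formed a list of 7 genes, of which SIRPA passed the filter. PDCD1, the receptor of PD-L1 and PD-L2, had at most 3 reads in a library. HAVCR2 (TIM-3), a receptor known to bind galectin-9, had 79 and 79 control reads against 98 and 86 ETS1-library reads, or 0.514 and 0.470 FPKM against 0.449 and 0.399 FPKM (voom log2 change -0.21, adjusted p = 0.348). LAG3 had 24 to 42 reads in a library. TIGIT had at most 5 reads, CD28 at most 1 and CTLA4 0.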

How the data were processed

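Bulk RNA was sequenced in 4 TE5 libraries. The submitters' processing notes name HISAT2, HTSeq and DESeq2 and the builds hg38 and GRCh38, with no versions; the annotation and the strand setting are not given in the sources used here. FPKM per library was computed by the authors for 55764 gene names, per the file headers and labels. A second deposited table gives the authors' comparison for 16652 genes, per the file headers: a mean normalized count (a signal averaged over libraries), log2 fold changes with standard errors on the log2 scale, and each p-value with its adjusted p-value. Raw counts were not used here.

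From the FPKM, log2(FPKM + 1) was tested with limma 3.58.1 in R 4.3.3 (group term, intensity trend, 2 residual and 2.84 prior degrees of freedom) on the 14306 genes whose average reached 1 FPKM. P-values are two-sided, were adjusted by Benjamini-Hochberg over those genes and were called under 0.05. An exact permutation test of 2 against 2 cannot go below p = 0.333, and limma borrows variance across genes. Reads were recovered from the ratios of FPKM between libraries and the authors' mean normalized count, and 99.6% of 66608 values fell within 0.01 of a whole read. For genes outside the authors' table the multiple was set by the GENCODE 29 length. Positions come from GENCODE 29 by gene name. Replicates differed by more than counting noise (mean chi-square per gene 4.25 and 4.24). The members, lists and tests were chosen with earlier results of these data known. Named were ETS1, all members, and listed genes, with at most 4 called genes per list in detail. Genes listed but under the filter were named where detection was at issue. CD44, JAK2, ICOSLG, TNFRSF14, ENTPD2, ENPP3, DPP4, LUM, PDGFRB, VWF, ITGAM and CDH1 were singled out after their values were seen. The limma step was tested on simulated data. Values of 2 listed genes are not reported here.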

Additional observations from a re-analysis of the deposited data

How the results depend on the processing

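LGALS1, LGALS3 and LGALS8 kept their direction and their side of the threshold under all alternatives that tested them (17, 16 and 16). CD47 did so under 16 of 17 and lost the threshold with the local median removed. CD276 turned positive under quantile normalization (0.030), with the local median removed (0.22) and without control replicate 1 (0.0035; range over the 4 leave-one-library-out fits -0.024 to 0.0035); its adjusted p over the 17 alternatives ran from 0.00214 to 0.939, and it passed the threshold only with the local median removed. Of 27 other listed genes, 23 kept direction and threshold throughout, 4 lost the threshold at least once (ADA, SIRPA, PLGRKT and SOX2) and 0 reversed.

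The 8451 calls over all genes became 5562 when the filter was raised to 5 FPKM (67.7% of the 8215 genes then tested, 2562 higher and 3000 lower) and 5386 at an adjusted p under 0.01, and ran from 5790 to 7680 when 1 library was left out. The number of members called lower was 0 under the 5 FPKM filter, because LGALS8 was then not tested. Leaving out 1 library gave 3 members called higher and 1 lower each time, but 1 arm then has a single library that is assumed to vary like the pair of the other group, so this is weak evidence of stability.

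The replicate number as a block gave 7283 calls over all genes, with 3 members higher and 1 lower. Same-numbered libraries did not deviate together (correlation across genes -0.046). This correlation cannot show whether they share a culture, a day or a batch. Depth limits CD274, VTCN1 and PDCD1LG2, with at most 27 reads in a library.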
